A study of Mus musculus with 4 samples.

Results

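The insulin-like growth factor (IGF) axis was followed as 10 genes: the ligand gene Igf1, the receptor gene Igf1r, the binding-protein genes Igfbp2, Igfbp3, Igfbp4, Igfbp5, Igfbp6 and Igfbp7, and Igf2bp1 and Igf2bp3, which encode mRNA-binding proteins. They were chosen by name, with earlier results of these data known, and matched through the RefSeq transcript that each array probe was designed on. They are 10 of 33378 genes or transcripts on the array, with 14 probes in all. The arrays held RNA of 4 samples. Induced pluripotent stem (iPS) lines 7 and 13 were derived from bone marrow mononuclear cells of C57BL/6 mice carrying an Oct4-EGFP transgene (n = 2), and how they were reprogrammed is not given in the sources used here. E14 embryonic stem (ES) cells, a feeder-grown line of strain 129, gave 1 array. C57BL/6 bone marrow mononuclear cells (BMMNCs), a mixed population of blood cells and their precursors, gave 1 array and have no transgene listed. The iPS and ES cells shared a medium with serum and leukaemia inhibitory factor and a layer of irradiated mouse embryonic fibroblasts, whose number was reduced by preplating on gelatin ahead of RNA extraction. Strain 129 therefore occurs in the ES sample only, and strain and cell type cannot be told apart in comparisons with it.

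IGF1 and IGF2 signal through the IGF1 receptor, a tyrosine kinase that activates the PI3K-AKT and MAPK pathways and supports growth and survival. The secreted IGF-binding proteins hold the ligands in extracellular fluid and serum, where they prolong their lifetime or withhold them from the receptor. IGFBP7 binds IGFs more weakly than the classical family members do. IGF2BP1 and IGF2BP3 are cytoplasmic proteins that bind Igf2 and other mRNAs, are known mainly from embryonic tissue and tumours, and are unrelated to the secreted binding proteins despite the name.

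Promoter sequences are shown for 4 members that stand for the patterns met below: Igfbp2 and Igf2bp3, high in the pluripotent lines and low in BMMNCs, and Igfbp4 and Igf1r, highest in BMMNCs. Each runs 5′ to 3′ on the strand of the gene, from 250 bases before the annotated start to 50 after it, from RefSeq on GRCm38.p6. Capitals mark matches to 4 motifs, searched on both strands and without overlaps. The GC box was searched as GGGCGG and the E-box as CACGTG. The TATA box was searched as TATAAA, and the CCAAT box by its own letters.
Igfbp2 (chr1:72824230-72824529, plus strand): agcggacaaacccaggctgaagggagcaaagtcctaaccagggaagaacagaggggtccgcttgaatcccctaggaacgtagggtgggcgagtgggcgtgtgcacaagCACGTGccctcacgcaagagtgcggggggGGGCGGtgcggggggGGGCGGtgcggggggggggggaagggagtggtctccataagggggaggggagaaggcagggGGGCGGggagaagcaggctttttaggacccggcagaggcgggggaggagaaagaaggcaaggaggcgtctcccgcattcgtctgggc
Igf2bp3 (chr6:49214905-49215204, minus strand): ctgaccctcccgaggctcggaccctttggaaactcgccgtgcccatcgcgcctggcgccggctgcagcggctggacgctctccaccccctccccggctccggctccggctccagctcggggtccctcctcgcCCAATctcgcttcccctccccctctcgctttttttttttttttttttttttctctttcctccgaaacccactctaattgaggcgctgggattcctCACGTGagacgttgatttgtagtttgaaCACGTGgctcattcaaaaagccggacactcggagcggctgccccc
Igfbp4 (chr11:99040994-99041293, plus strand): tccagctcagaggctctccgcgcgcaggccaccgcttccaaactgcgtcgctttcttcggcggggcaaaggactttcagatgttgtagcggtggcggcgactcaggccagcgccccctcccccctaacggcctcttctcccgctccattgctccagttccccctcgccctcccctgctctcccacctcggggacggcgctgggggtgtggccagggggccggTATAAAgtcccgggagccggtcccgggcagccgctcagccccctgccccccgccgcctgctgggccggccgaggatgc
Igf1r (chr7:67952007-67952306, plus strand): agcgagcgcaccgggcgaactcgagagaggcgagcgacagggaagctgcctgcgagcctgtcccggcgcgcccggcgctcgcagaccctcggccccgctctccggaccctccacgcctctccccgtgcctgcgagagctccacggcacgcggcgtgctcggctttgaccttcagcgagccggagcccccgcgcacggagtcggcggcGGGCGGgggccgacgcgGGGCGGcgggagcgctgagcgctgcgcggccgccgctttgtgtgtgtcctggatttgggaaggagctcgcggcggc
The Igfbp2 window shown held 3 GC boxes, whose first bases lay 113, 98 and 37 bases before the start. It also held an E-box 142 bases before the start. In Igf2bp3 a CCAAT box lay 118 bases before the start, with 1 E-box 23 bases before it and another just after it. Igfbp4 had a TATA box 28 bases before its start, and Igf1r had GC boxes 43 and 26 bases before its own.
Of all 32851 promoters of this length, 35.7% held a GC box, 13.6% a TATA box, 37.4% a CCAAT box and 7.15% an E-box. Among the 10 promoters found for 9 members (Igfbp2 has 2), the counts were 3 with a GC box, 2 with a TATA box, 3 with a CCAAT box and 2 with an E-box. The octamer ATGCAAAT occurred in 0 of the 10 and in 1.74% of all. The Igf1r promoter had 48 CpG dinucleotides, more than 98.8% of all promoters, whose median was 7. The promoters shown for Igfbp4, Igf2bp3 and Igfbp2 had 27, 25 and 18. The other Igfbp2 promoter, not shown, had 14 and none of the motifs searched. These matches describe letters only.

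Well above background were 59.0% of probes in line 7, 56.1% in line 13, 57.4% in ES cells and 54.6% in BMMNCs. The 75th percentile of processed signal, to which every level below is scaled, was 1068 in line 7, 1070 in line 13, 1003 in ES cells and 581 in BMMNCs. All 8 pluripotency markers examined were well above background on the iPS and ES arrays, against 3 of 8 in BMMNCs, and all 8 pan-haematopoietic markers were lower in the iPS lines than in BMMNCs. A level is the log2 ratio of signal to that percentile, and it is compared for 1 probe across samples, not between probes. The iPS lines were tested against the other groups with limma over 21217 genes or transcripts, with Benjamini-Hochberg adjustment and a threshold of 0.05. The 2 lines supply the only estimate of spread, which the single ES and BMMNC arrays were assumed to share. No label says whether the lines came from separate animals, and the spread behind each p-value is that of 2 samples, which may be technical.

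Most of the axis differed between iPS lines and BMMNCs: of 10 members, 7 rose, 2 fell and 1 did not pass the test in the iPS lines. Over all genes 75.6% passed, 38.3% higher and 37.4% lower in the iPS lines, so that a call alone is common here. The median difference of the members was 4.73 on the log2 scale, against 0.0075 over all genes tested. With the 3 members not above background in BMMNCs at their bound, the members' median was 4.35. The members were chosen with earlier results of these data known, so this contrast is a description only. Igfbp3, Igfbp6 and Igf2bp1 entered the test only because the pluripotent arrays detected them. Their fitted differences, SEs and p-values take a BMMNC signal not well above background as measured, and add nothing to the bounds given below. The other 7 members were well above background on all 4 arrays.

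The ligand gene Igf1 had levels of -1.99 in line 7, -2.24 in line 13 and -2.31 in ES cells, against -2.13 in BMMNCs. The BMMNC array lay between the 2 lines. The difference of iPS lines from BMMNCs was 0.011 (SE 0.16, limma adjusted p = 0.953), and its sign changed with the scaling. This probe is printed in 10 spots per array, and the SD between spots, which holds no variation between arrays or cultures, was 0.057 on each pluripotent array and 0.060 in BMMNCs.

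Igf1r, the receptor, had levels of -0.32 and -0.34 in lines 7 and 13 and -0.88 in ES cells, against 0.034 in BMMNCs. All pluripotent arrays were below BMMNCs, ES cells the most. The iPS lines were 1.29-fold lower than BMMNCs, a log2 difference of -0.37 (SE 0.093, limma adjusted p = 0.0439). That call was lost with the authors' deposited scaling (-0.26, adjusted p = 0.0869), without the filter on dim probes (adjusted p = 0.188) and with ES and iPS arrays as 1 group (adjusted p = 0.192), and array-median scaling moved the difference to -0.58.

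Of the 6 binding-protein genes, 5 rose in the iPS lines and Igfbp4 fell. Igfbp2, a binding protein abundant in fetal tissue and serum, had levels of 5.42 in line 7, 5.61 in line 13 and 5.95 in ES cells, against -3.86 in BMMNCs. The iPS lines exceeded BMMNCs 662-fold (log2 difference 9.37, SE 0.13, limma adjusted p = 0.000703; 8.05 with the normexp setting described next). The pluripotent arrays lay close together and far above BMMNCs, ES cells the highest and line 7 the lowest of them. Igfbp5, which lies next to Igfbp2 in gene order on chromosome 1 and whose product binds extracellular matrix, had levels of -0.15 in line 7, -0.46 in line 13 and -0.75 in ES cells, against -4.33 in BMMNCs. The iPS lines exceeded BMMNCs 16.3-fold (4.03, SE 0.19, limma adjusted p = 0.00156), and here ES cells were the lowest of the pluripotent arrays. After normexp background correction, which adds an offset of 50 to each signal, and quantile normalization, that difference was 2.56. A second Igfbp5 probe stayed near background on all 4 arrays, and with the mean of both probes the difference was 1.86.

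Igfbp7, whose product is deposited in vascular basement membranes, had levels of 5.98 in line 7, 5.84 in line 13 and 5.67 in ES cells, against -1.46 in BMMNCs. The rise was 165-fold (7.36, SE 0.12, limma adjusted p = 0.000703), with BMMNCs themselves well above background. Igfbp6, which prefers IGF2 over IGF1, had levels of -0.15 in line 7, -0.27 in line 13 and -0.74 in ES cells, against -5.65 in BMMNCs, where it was not well above background. Against the lowest signal that counted as above background, the rise was at least 25.4-fold (fitted difference 5.44, limma adjusted p = 0.000736). With normexp the fitted difference was 3.35, below that bound, which holds for the processed signal alone. Igfbp3, the main carrier of IGFs in serum, had levels of -3.22 in line 7, -3.50 in line 13 and -3.79 in ES cells, against -6.58 in BMMNCs, again not well above background. Its iPS level was at least 2.87-fold higher (fitted difference 3.22, limma adjusted p = 0.00192), and with normexp the fitted difference was 1.01, below that bound. All 3 genes kept the same order, with line 7 highest, then line 13, ES cells and BMMNCs.

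Igfbp4, a binding protein that is inactivated when the protease PAPP-A cleaves it, ran the other way. Its levels were -0.76 in line 7, -0.94 in line 13 and -1.47 in ES cells, against -0.0020 in BMMNCs. The iPS lines were 1.80-fold lower than BMMNCs (-0.85, SE 0.13, limma adjusted p = 0.0154). The call was lost without the filter on dim probes (adjusted p = 0.0509) and with ES and iPS arrays as 1 group (adjusted p = 0.0674). A dimmer second probe for Igfbp4 had -1.66 in line 7, -1.91 in line 13 and -2.25 in ES cells, against -1.54 in BMMNCs. The order of the arrays was the same on both probes, but the second gave a difference of -0.25 and the mean of the 2 probes -0.55.

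The 2 mRNA-binding members had small differences among the pluripotent arrays and large ones from BMMNCs. Igf2bp1 had levels of 4.75 in line 7, 4.72 in line 13 and 4.35 in ES cells, against -6.70 in BMMNCs, where it was not well above background. The rise over BMMNCs was at least 785-fold (fitted difference 11.44, SE 0.093, limma adjusted p = 0.000703) in processed signal, and with normexp the fitted difference was 8.38, below that bound. The SE and p-value take the dim BMMNC signal as measured and hold no spread of BMMNC samples. Igf2bp3 had levels of 1.31 in line 7, 1.28 in line 13 and 1.36 in ES cells, against -4.88 in BMMNCs, a rise of 72.1-fold in the iPS lines (6.17, SE 0.093, limma adjusted p = 0.000703). The BMMNC value lies at the edge of detection, where the lowest level well above background was also -4.88, and with normexp the difference was 4.65. Its other 2 probes gave differences of 5.70 and 5.76, with BMMNCs not well above background on either. On every probe of both genes the 3 pluripotent arrays were clear of the BMMNC array.

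**Figure D1:**
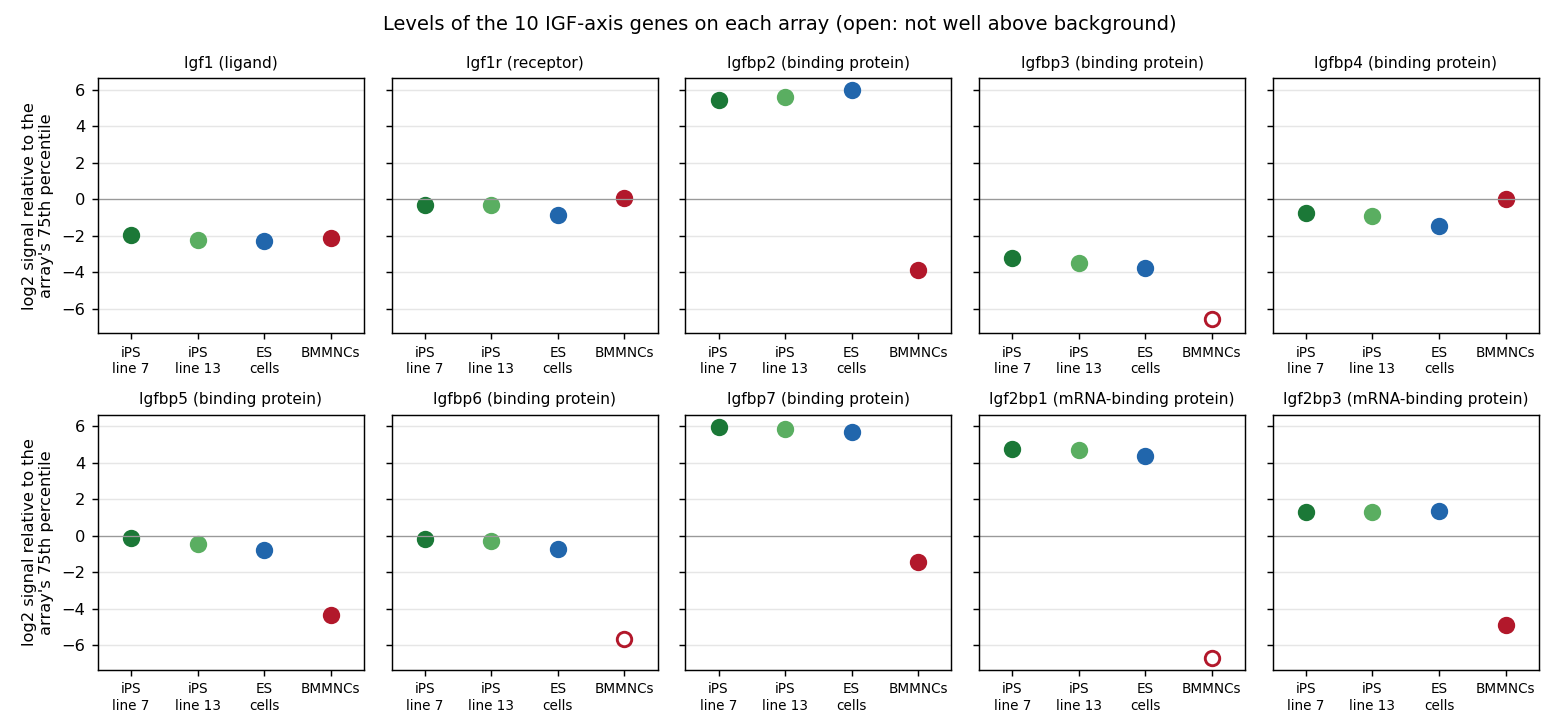
Log2 signal relative to the array's 75th percentile (vertical axis) of each of the 10 genes in iPS line 7, iPS line 13, ES cells and BMMNCs, 1 point per array, with open points where the probe was not well above background. Igfbp2, Igfbp3, Igfbp5, Igfbp6, Igfbp7, Igf2bp1 and Igf2bp3 lie far above their BMMNC point on all pluripotent arrays, Igf1 spans -2.31 to -1.99, and Igf1r and Igfbp4 are highest in BMMNCs.

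ES cells, compared with BMMNCs by size alone because each gave 1 array, had 7 of 10 members at least 4-fold higher and 0 lower by measured signal, where 33.1% of all genes were 4-fold apart and 17.3% were higher. For 1 of the 7, Igfbp3, the BMMNC signal was not well above background and its bound falls short of 4-fold, which leaves 6 members. The 7 were the genes that rose in the iPS lines. Igfbp2 was 896-fold, Igfbp7 139-fold, and Igf2bp3 75.5-fold higher in ES cells, and Igfbp5 was higher by 3.58 on the log2 scale. For the genes not well above background in BMMNCs the bounds were at least 602-fold for Igf2bp1, 17.6-fold for Igfbp6 and 2.14-fold for Igfbp3. With normexp the log2 differences were lower, at 7.93 for Igf2bp1, 2.83 for Igfbp6 and 0.75 for Igfbp3, all below these bounds. Igfbp4 was 2.77-fold and Igf1r 1.88-fold lower in ES cells, and Igf1 differed by -0.18 on the log2 scale. No test was run on these pairs of arrays, and the BMMNC array is shared with the comparison of the iPS lines.

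**Figure D2:**
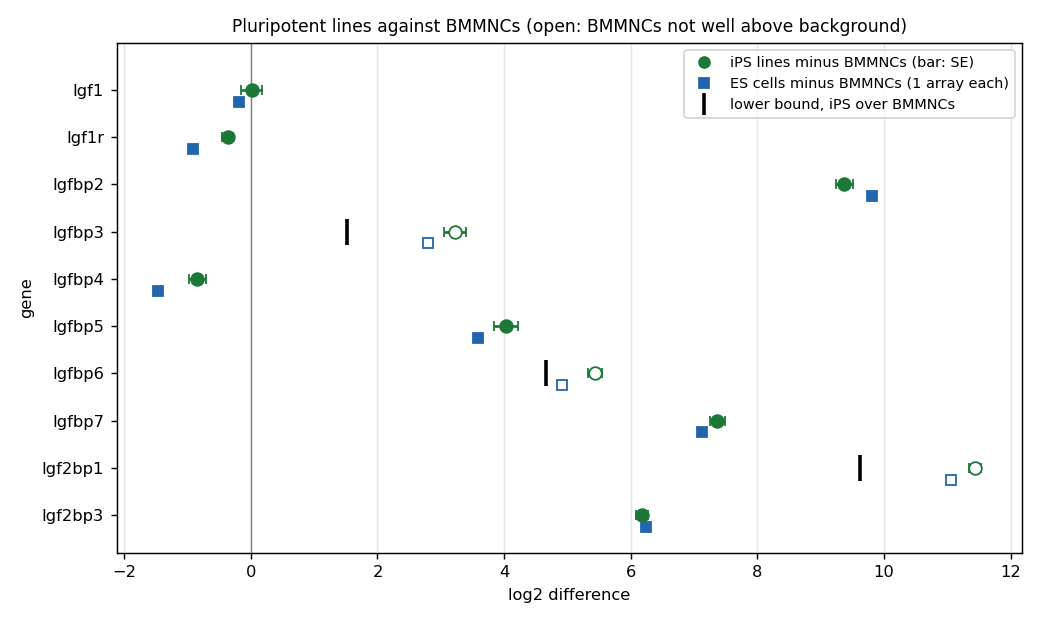
Log2 differences from BMMNCs (horizontal axis) of the 10 genes, with circles for the iPS lines (bars are the standard error from limma, 2 lines) and squares for ES cells (1 array), open where BMMNCs were not well above background. Black ticks give the lower bound in processed signal for the iPS lines, which is 2.87-fold for Igfbp3 and 785-fold for Igf2bp1.

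Cell-type markers also differed between the iPS lines and BMMNCs, in both directions. All 18 fibroblast markers examined, chosen because embryonic fibroblasts were the feeder layer, rose in the iPS lines against BMMNCs, with a median log2 difference of 6.84 (6.09 with bounds). Their summed level, in multiples of the 75th-percentile signal, was 821 in line 7 and 757 in line 13, 679 in ES cells and 89.7 in BMMNCs. Most of the BMMNC sum came from Vim, whose log2 level there was 6.26 and which rose by only 0.53 in the iPS lines. Such a sum adds different probes, so bright probes dominate it. All 18 markers were well above background on each pluripotent array, against 8 of 18 in BMMNCs. Of 10 primitive endoderm markers, 9 rose in the iPS lines, where 38.3% of all genes did. Of the 10, 8 were not well above background in BMMNCs and entered the test through the pluripotent arrays. Their median difference was 4.93 as fitted for all 10 and 3.63 with bounds. Pdgfra is on both this list and the fibroblast list. Of 5 marrow stroma markers tested, 2 rose and 3 fell. The part of any of these cell types in the levels of the IGF genes was not tested, and in such bulk RNA fewer cells of a type and less RNA per cell cannot be told apart.

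Against ES cells, 0 of the 10 members passed the limma test in the iPS lines, where 4.79% of all genes did. The closest was Igf1r, 1.46-fold higher in the iPS lines (log2 difference 0.54, SE 0.093, adjusted p = 0.0860). Members that were higher in the iPS lines but missed the threshold were also Igfbp4 by 0.62 (adjusted p = 0.109), Igfbp6 by 0.53 (adjusted p = 0.107), Igfbp5 by 0.45 (adjusted p = 0.238) and Igfbp3 by 0.43 (adjusted p = 0.226). The differences were smaller for Igf2bp1 at 0.38 (adjusted p = 0.127), Igfbp7 at 0.24 (adjusted p = 0.279) and Igf1 at 0.19 (adjusted p = 0.490). Only Igfbp2 at -0.44 (SE 0.13, adjusted p = 0.163) and Igf2bp3 at -0.067 (adjusted p = 0.673) were lower in the iPS lines, and Igf2bp3 changed sign under array-median scaling. In each of the 10 genes both lines lay on the same side of the ES array. How many of all genes share this was not counted, so it is a description only.

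The smallest difference that this test called in any gene was 0.98, which no member reached, and the lowest adjusted p of any gene was 0.0425. At an unadjusted p under 0.05, 4 members passed, Igf1r, Igfbp4, Igfbp6 and Igf2bp1, where 31% of all genes did. When limma's spread followed signal intensity, 7 members passed against 35.8% of all genes: Igf1r, Igfbp4, Igfbp5, Igfbp6, Igfbp7 and Igf2bp1 higher and Igfbp2 lower in the iPS lines. Igf1r, Igfbp4, Igfbp6 and Igf2bp1 passed after normexp background correction, where 18% of all genes did. Among genes well above background on all arrays, Igf1r, Igfbp4 and Igfbp5 passed as higher and Igfbp2 as lower, 4 of 7 members against 38.5% of all such genes. With array-median scaling, quantile normalization, the authors' table, no filter or the mean of the probes, 0 passed.

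**Figure D3:**
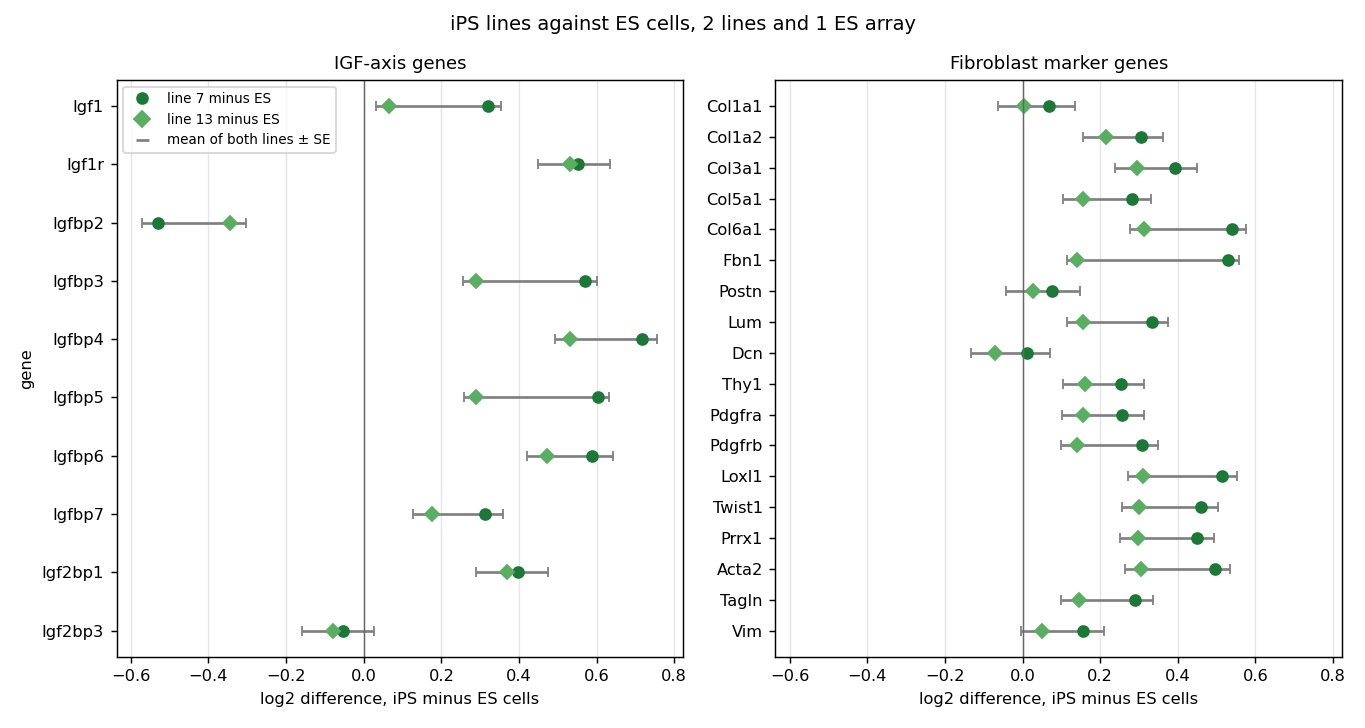
Log2 differences of iPS lines from ES cells (horizontal axis) for the 10 genes (left) and the 18 fibroblast markers (right), with circles for line 7, diamonds for line 13 and bars for the mean of both lines ± the standard error from limma. Of the 10 genes, 8 lie right of zero, with Igfbp2 at -0.44 and Igf2bp3 at -0.067 on the left, and 17 of the 18 markers lie right of zero.

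The binding-protein members had a median difference from ES cells of 0.44, against -0.051 over all genes tested. Over all genes tested, 9377 of 21217 were higher in the iPS lines. Fibroblast markers were higher in the iPS lines in 17 of 18 cases, with a median of 0.23 and 0 past the test. Primitive endoderm markers had a similar median of 0.24, with 7 of 10 higher. The 5 marrow stroma markers tested had a median of 0.20, with 3 higher, and the 8 pan-haematopoietic markers -0.16, with 3 higher. The 8 pluripotency markers had a median of -0.33, with 6 lower, of which 1 passed the test: Zfp42 was 12.9-fold lower in the iPS lines (limma adjusted p = 0.0425). Of 10 primitive endoderm markers 1 passed, Sox7, in which the iPS lines exceeded ES cells at least 9.48-fold (limma adjusted p = 0.0425, not well above background in ES cells). That bound is no more than the measured ratio. The ES level of Sox7, -4.83, lay above the lowest level that counted as well above background there, -5.08. Zfp42 and Sox7 were named after their values were seen. How far these shifts and those of the IGF genes have a common source was not tested. The single ES array is the only measurement of strain 129, and its own spread was not measured.

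Line 7 against line 13 gave 0 of 10 members at least 2-fold apart, where 2.44% of all genes were. The differences ran from -0.19 for Igfbp2 to 0.31 for Igfbp5, and 9 of 10 members were higher in line 7. Igfbp3 differed by 0.28, Igf1 by 0.26, Igfbp4 by 0.18, Igfbp7 by 0.14 and Igfbp6 by 0.12, while Igf1r, Igf2bp1 and Igf2bp3 differed by 0.022 to 0.029. Of all genes tested, 8958 of 21217 were higher in line 7, with a median of -0.029. The 18 fibroblast markers were all higher in line 7, by a median of 0.14, and the 8 pluripotency markers were all lower, by a median of -0.11. Line 7 was also higher in all 6 monocyte and macrophage markers tested, by a median of 0.11. It was higher in 6 of 10 primitive endoderm markers (median 0.11) and 4 of 5 marrow stroma markers (0.081). Of 8 pan-haematopoietic markers, 3 were higher in line 7 (median -0.13). Each line gave 1 array, and no test of these differences was made.

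The other genes of the pathway were taken as 5 lists. Among ligands and receptors outside the 10 members, 5 of 6 were tested against BMMNCs in the iPS lines, of which 2 rose and 1 fell, with a median difference of 0.18. Igf2, the fetal growth factor whose paternal copy is the active one, had levels of 4.05 in line 7, 3.84 in line 13 and 3.44 in ES cells, against -6.61 in BMMNCs, where it was not well above background. The iPS lines exceeded BMMNCs by at least 453-fold (limma adjusted p = 0.000703). Igf2r, the receptor that clears IGF2, was named after its values were seen, and differed by 0.18 (limma adjusted p = 0.235). Ins2, an insulin gene, rose by at least 1.91-fold. Like Igf2, it was not well above background in BMMNCs, so both entered the test through the pluripotent arrays. Insrr, a relative of the insulin receptor, was 2.83-fold lower by measured signal, with line 13 not well above background. Insr, near background on all 4 arrays, was not tested.

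Proteins that bind IGFs or regulate their binding proteins rose in 7 of 7 tested cases, and none was well above background in BMMNCs, so that each entered the test through the pluripotent arrays. Their median difference was 4.01 as fitted and 1.85 with each gene at its bound. Htra1, a secreted serine protease, had levels of 6.01 in line 7, 5.90 in line 13 and 5.01 in ES cells, against -4.99 in BMMNCs, a rise of at least 1825-fold (limma adjusted p = 0.000703). Pappa, whose product cleaves IGFBP4, was at least 123-fold higher. Stc2 and Stc1, stanniocalcins that inhibit PAPP-A, were at least 38.8-fold and 3.61-fold higher. Igfals, the acid-labile subunit of the serum IGF complex, was at least 2.77-fold higher. Against ES cells, Igfbp1 rose by at least 1.67-fold (fitted difference 1.38, limma adjusted p = 0.0460, not well above background in ES cells). Igfbpl1, an IGFBP-like gene, fell by 1.59 on the log2 scale (limma adjusted p = 0.0483).

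Receptor substrates and downstream kinases were divided, with 9 of 23 tested rising, 7 falling and 7 not passing against BMMNCs, and a median difference of -0.053. Over all genes 38.3% rose and 37.4% fell, so that these counts lie near the background. Pik3cd, the leukocyte-enriched PI3K catalytic subunit, had levels of 0.031 in line 7, 0.13 in line 13 and 0.17 in ES cells, against 4.41 in BMMNCs, 20.1-fold lower in the iPS lines (limma adjusted p = 0.000795). Pik3r1, a regulatory subunit, was 4.65-fold lower. Grb10 and Grb14, adaptors that restrain insulin and IGF receptors, were 14.1-fold and 11.1-fold higher in the iPS lines. Irs1, near background on all 4 arrays, was not tested. Against ES cells the only call of the 23 was Foxo3, a forkhead factor that AKT inhibits, which fell by 1.69 on the log2 scale (limma adjusted p = 0.0434), with line 13 not well above background.

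The growth hormone axis, which drives Igf1 in liver, was also split, with 2 of 5 genes rising, 3 falling and a median difference of -1.65. Ghr, the growth hormone receptor, was not well above background in BMMNCs and entered the test through the pluripotent arrays. It exceeded its BMMNC level in the iPS lines by at least 55.6-fold (limma adjusted p = 0.000703). Socs2, a feedback inhibitor of that receptor, was 30.5-fold higher. Stat5b and Stat5a, the transcription factors below it, were 15.4-fold and 14.6-fold lower, and Jak2, the kinase of the receptor, was 3.14-fold lower. Igf2bp2 and the Lin28 and Hmga genes rose in 5 of 5 tested cases, by a median of 4.58 (4.30 with bounds). Igf2bp2, the third family member, was 23.8-fold higher, and Lin28a, an inhibitor of let-7 maturation, was 4.72-fold higher. Lin28b and Hmga2 were at least 19.7-fold and 24.3-fold higher. Neither was well above background in BMMNCs, so both entered the test through the pluripotent arrays. Hmga1, a chromatin protein, rose by 0.61 on the log2 scale.

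**Figure D4:**
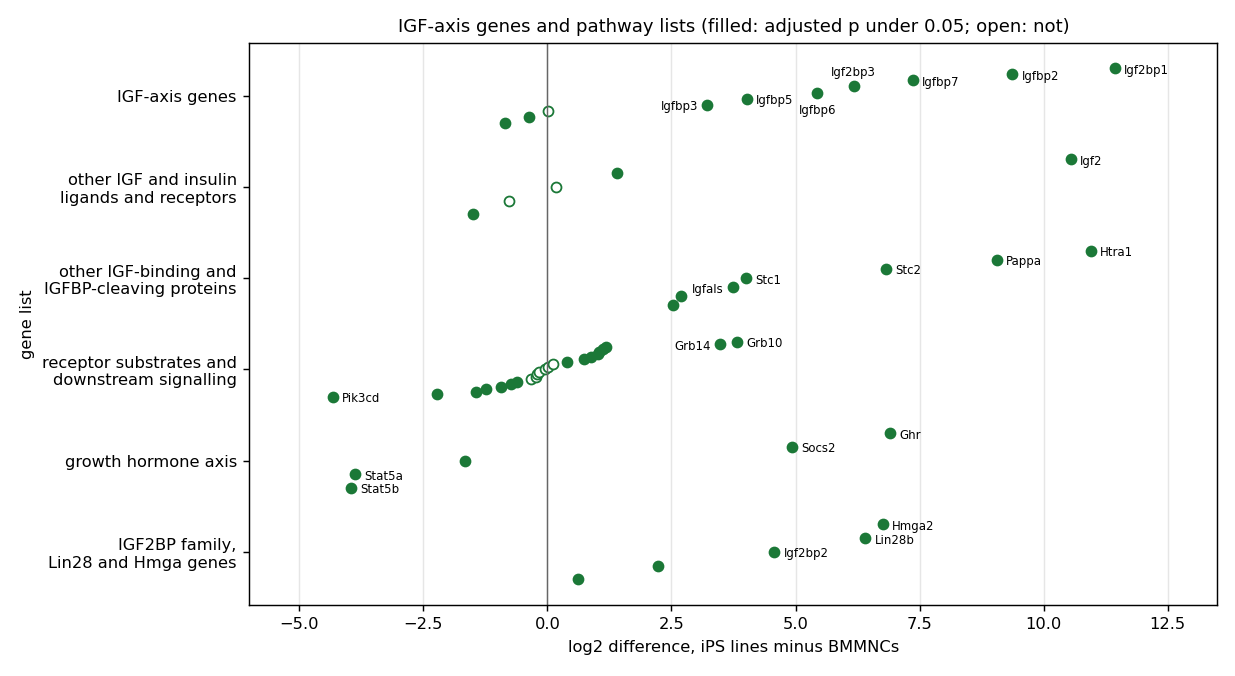
Log2 differences of iPS lines from BMMNCs (horizontal axis) for the 10 IGF-axis genes and 5 pathway lists, 1 point per gene tested, filled where the limma adjusted p was under 0.05. All 7 genes of the IGF-binding and IGFBP-cleaving list and all 5 of the IGF2BP, Lin28 and Hmga list lie right of zero, while signalling and growth hormone genes lie on both sides.

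For the 7 members well above background on all arrays, the genes with the most similar profile were found among 10004 others that also met this and had a symbol, by the root mean square distance of log2 levels, each centred over the 4 arrays. Igf1r was nearest to Aacs (0.017) and Pcyox1 (0.021), and Igfbp4 to Slc4a2 (0.019) and Atrnl1 (0.036). Igf1 was nearest to Slc35a2 (0.024) and Cd99l2 (0.033). Igfbp5 was nearest to Gpnmb (0.037) and Rhoj (0.047), and Igfbp7 to the basement membrane gene Nid1 (0.10) and smooth muscle actin, Acta2 (0.12). Igf2bp3 was nearest to Mycn (0.048) and Rai14 (0.084), and Igfbp2 to the collagen genes Col18a1 (0.30) and Col1a1 (0.31). With 4 arrays such distances describe these samples only, and Col1a1 and Acta2 are among the fibroblast markers above.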

How the data were processed

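Cy3-labelled RNA of 4 samples was hybridised to single-colour Agilent arrays, read with Agilent Feature Extraction 9.5 per the submitters' processing notes (9.5.1.1 per the file headers). The deposited intensity values are processed signals, background-subtracted within each array, per the file headers. The 4 arrays share a slide and a scan time, and no spot was saturated. The authors' deposited intensity table holds the same signals, each array divided by its own constant. It is linear and without centring of genes, its medians are 135.9 (line 7), 133.6 (line 13), 139.9 (ES cells) and 106.2 (BMMNCs), and how its factors were set is unknown.

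Control spots and 253 outlier spots were dropped, log2 signals were averaged over the spots of a probe, and the array's 75th percentile was subtracted. Probes carry transcript accessions, of which RefSeq (GRCm38.p6) named 22948 of 41174 probes. The array was designed on an older build, so only names, chromosomes, gene order and RefSeq's own promoters were taken from it. A gene took its brightest probe, and 21217 of 33378 genes or transcripts were above background on at least 1 array, a probe counting when a share of 0.5 or more of its spots did. limma 3.58.1 in R 4.3.3 was fitted to all arrays with means for iPS, ES and BMMNC and 1 residual degree of freedom (prior 1.81 degrees of freedom, SD 0.094). ES cells against BMMNCs (4-fold) and line 7 against line 13 (2-fold), with the higher side above background, were described by size. A fold given as "at least" is a bound in processed signal, not under other background corrections, and sets the mean of the bright group against the higher of the dim probe's signal and the lowest signal well above background on that array. The fit was also run on simulated data, with the same spread for a gene on all 4 arrays. That run therefore cannot test whether the ES and BMMNC arrays share the spread of the 2 lines.

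All 10 members were named, and list genes where at least 4-fold apart and past the threshold against BMMNCs, or past it or 2-fold apart against ES cells, up to 5 a list by size, with the first of each list; Igf2r, Igfbpl1, Insr, Insrr, Jak2 and Hmga1 complete counts or were added after their values were seen. Members and lists were chosen with earlier results of these data known. Pappa2, Irs2 and H19 had no matched probe and are not analysed here. Alternatives were background correction, scaling, the authors' table, the filter, the probe rule, the variance model, grouping and leaving out a line. The number of arrays limits the precision.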

Additional observations from a re-analysis of the deposited data

How the results depend on the processing

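Against BMMNCs, 9 members passed, and 6 to 9 did under the alternatives with a test. Where only genes above background on all arrays were kept, 6 of 7 members passed, beside 12537 of all 14859 such genes. With 1 line left out, 7 to 7 members stood at least 4-fold from BMMNCs by measured signal, among them Igfbp3, whose bound is below 4-fold, and 0 to 0 at least 2-fold from ES cells, as values with no test. The share of all genes past these size rules with 1 line was not counted. Igf1, not past the threshold in any fit, changed sign against BMMNCs with normexp (-0.11), quantile normalization (-0.15), array-median scaling (-0.20) and ES and iPS arrays as 1 group (-0.053). Against ES cells, Igf2bp3 changed sign under array-median scaling (0.017). The 0 members called against ES cells became 4 with normexp, 4 among genes above background on all arrays and 7 with an intensity trend. Over all genes, 1016 calls became 3828, 5724 and 7591 under these, and 0 with the authors' table or without a filter (6632 and 4677 at unadjusted p under 0.05 in limma). In ES cells against BMMNCs, 7 members became 4 where all arrays had to be above background, since 3 were then not tested, and 6 with normexp (Igfbp3 at 0.75) and with the mean of the probes (Igfbp5 at 1.71). Array-median scaling shifted all genes by -0.21 (iPS lines minus BMMNCs) and -0.29 (ES cells minus BMMNCs), the authors' table by 0.11 and 0.08; calls in the iPS lines over all genes split 8122 higher and 7927 lower, 7103 and 9081 under array-median scaling. Normexp used median spot signals, chosen after seeing the data, and the planned version on mean signals was not run, because the files used here hold no such column. Other causes were not tested. No paired analysis was possible because lines 7 and 13 carry line numbers and the ES and BMMNC arrays are single. Signal over background limits Igfbp3, Igfbp6 and Igf2bp1 in BMMNCs to bounds.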

Other observations

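Ins1, an insulin gene, was the only gene of the 5 pathway lists that differed by at least 2-fold between the lines with its higher side above background. Its level was -7.53 in line 7, not well above background, and -3.26 in line 13, with -7.19 in ES cells, not well above background, and -4.62 in BMMNCs. The difference of the iPS lines from BMMNCs did not pass (limma adjusted p = 0.769).

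Several pathway genes carry more than 1 probe. A second Igf2 probe gave a log2 difference of iPS lines from BMMNCs of 7.89, beside 10.55 for the brightest, with BMMNCs not well above background on either. The 3 probes of Grb10 gave 3.82, 4.61 and 3.26, and BMMNCs were well above background on the brightest alone. A second Lin28b probe stayed near background on all 4 arrays.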
